A study of Mus musculus with 2 samples.

Results

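A set of 8 genes of vascular mural cells and of nitric oxide sensing, Gucy1a1, Gucy1b1, Rgs5, Acta2, Myh11, Tagln, Des and Pdgfrb, were followed through single-cell RNA sequencing of distal colon adenomas. They are 8 of the 21041 genes in the matrix and were chosen by name with their UMI levels in these same cells known, so the levels are a description and carry no test. The tissue came from 25-week-old Apcmin;LSL-mTERT mice, and the study has 1 library for each of 2 groups, named G0+T and G4+T. Both groups share the Apcmin allele, a truncating mutation of a Wnt pathway brake, and the LSL-mTERT allele, a mouse Tert gene behind a removable stop. The labels used here name no Cre driver and no number of animals per library. The authors put every cell in a class, CIN_high or CIN_low. All 6189 cells of 1 barcode suffix were CIN_high and all 7908 cells of the other were CIN_low, so the classes separate the libraries. Cell names and sample titles conflict on which library is which group, and the libraries are therefore called by class here and left without a group name. A single library stands for each class, so nothing could be checked across replicates, and mouse, tissue piece and preparation cannot be told apart from the class.

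Mural cells wrap the endothelial tube of blood vessels: pericytes sit on capillaries and smooth muscle cells on larger vessels. Their actin and myosin filaments contract, and nitric oxide made by endothelial cells relaxes them by binding soluble guanylate cyclase, a dimer of an alpha and a beta subunit that makes cyclic GMP. Cyclic GMP acts through protein kinase G and is broken down by phosphodiesterases. Platelet-derived growth factor B, released by endothelial cells, holds pericytes to the vessel through its receptor PDGFRB.

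Gucy1a1 and Gucy1b1 encode the alpha and the beta subunit, and the genes are neighbours on the minus strand of mouse chromosome 3, at chr3:82092427-82145789 and chr3:82032006-82074689 (GRCm38/mm10), with 17737 bases between them. Rgs5 (chr1:169655501-169695813) encodes a GTPase-activating protein that damps G protein signalling and is a common pericyte marker. Upstream sequence of the neighbouring subunit genes is shown because endothelial clusters differed in which of them they held, and that of Rgs5 because yet another cluster held it. The sequences are RefSeq upstream windows (GRCm38.p6), cut to the bases outside annotated exons and written 5′ to 3′ on the strand of the gene. Capitals mark the CCAAT box letters on either strand (CCAAT or ATTGG).
Gucy1a1: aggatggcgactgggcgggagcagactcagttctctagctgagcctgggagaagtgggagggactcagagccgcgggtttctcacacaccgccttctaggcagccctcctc
Gucy1b1: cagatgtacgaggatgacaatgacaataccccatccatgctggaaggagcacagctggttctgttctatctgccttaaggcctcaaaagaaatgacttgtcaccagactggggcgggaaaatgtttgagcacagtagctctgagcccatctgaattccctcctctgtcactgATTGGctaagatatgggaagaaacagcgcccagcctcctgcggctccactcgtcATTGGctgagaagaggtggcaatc
Rgs5: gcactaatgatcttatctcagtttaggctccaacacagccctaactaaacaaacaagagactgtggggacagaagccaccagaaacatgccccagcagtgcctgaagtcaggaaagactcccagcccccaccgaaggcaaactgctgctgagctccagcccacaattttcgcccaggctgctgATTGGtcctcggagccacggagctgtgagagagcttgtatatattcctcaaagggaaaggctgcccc
They span chr3:82145790-82145900 (111 bases, 63.06% G and C), chr3:82074712-82074961 (250 bases, 51.2%) and chr1:169655251-169655500 (250 bases, 53.6%). Symbols matched a window for 5 of the 8 genes (Gucy1a1, Gucy1b1, Rgs5, Acta2 and Des). The CCAAT letters occurred 2 times upstream of Gucy1b1, 1 time upstream of Rgs5 and 0 times upstream of Gucy1a1, Acta2 and Des, and 33.8% of all 32851 windows of 250 bases held them. The letter pattern used for the CArG box, the motif bound by serum response factor, matched in 0 of the 5 genes' windows and in 1.47% of all windows. Sites that depart from the searched letters or lie outside the windows are not counted, so these genes are not shown to lack a CArG box.

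The libraries held 51868113 UMIs (CIN_high; median 6448 per cell) and 74733715 UMIs (CIN_low; 7154 per cell). A UMI is 1 counted RNA molecule. Cells ranged from 801 to 109676 UMIs, and 11 barcodes occurred in both libraries. The authors' annotation named 83 and 58 pericytes in the CIN_high and CIN_low library, 602 and 247 endothelial cells, and 966 and 21 fibroblasts. Endothelial cells were shallow, with medians of 3715 and 4456 UMIs, against 5345 and 8835.5 in pericytes. Each annotated label was checked against defining markers. All 15 endothelial genes were found in at least 10% of endothelial cells of each library. In annotated pericytes 14 of 15 pericyte genes were, in each library. The smooth muscle list (Actg2, Cnn1 and others) was also present there, at a summed level of 21.8 and 4.93 UMIs per 10000. Level means the mean over cells of UMIs per 10000. It is compared within a gene and not between genes, because it is not scaled to length. Intervals are exact 95% intervals (Clopper-Pearson for shares of cells) and cover counting error only.

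Annotated pericytes held every one of the 8 genes at the highest level among the annotated types in both libraries. Rgs5 reached 55.9 UMIs per 10000 in the pericytes of the CIN_high library and 116 in those of the other, with a UMI in 58 of 83 cells (69.9%, 58.8% to 79.5%) and 57 of 58 cells (98.3%, 90.8% to 99.96%). Pdgfrb, the growth factor receptor, was at 5.00 and 10.0, in 56.6% and 100% of cells. Both genes were lower in the CIN_high library as annotated. Of its 83 pericytes 39 form a cluster, led by Hhip and described below, that has no CIN_low cell, and without it the log2 ratios of CIN_high over CIN_low were -0.23 for Rgs5 and -0.15 for Pdgfrb, within 1.5-fold. In fibroblasts of the CIN_high library Rgs5 was at 0.350 (8.18% of cells), whereas Pdgfrb reached 0.908 (40.5%). Fibroblasts are a known site of PDGFRB.

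The actomyosin genes were higher in CIN_high pericytes as annotated, and this too changed without the Hhip-led cluster. Acta2, which encodes smooth muscle actin, was at 43.0 in CIN_high and 17.8 in CIN_low pericytes, with a UMI in 80.7% and 81.0% of cells. Myh11, the smooth muscle myosin heavy chain, was at 25.7 and 6.07, in 81.9% and 81.0% of cells. Tagln, which encodes the actin-binding protein transgelin, was at 36.2 and 10.2, in 75.9% and 81.0%. Des, the muscle intermediate filament desmin, followed Rgs5 instead, at 2.80 and 4.77, in 54.2% and 93.1% of cells. CIN_low pericytes were deeper, and thinned to 2000 UMIs the shares were 73.4% and 67.3% for Acta2, 69.5% and 53.6% for Myh11 and 69.8% and 57.8% for Tagln. Without the Hhip-led cluster the log2 ratios were -0.47 for Acta2, which turned its direction, 0.49 for Tagln, 0.76 for Myh11 and -0.16 for Des. The genes of the filaments and the receptor lie at chr1:75360329-75368579 (Des), chr9:45929619-45936058 (Tagln), chr16:14194535-14291372 (Myh11), chr18:61045150-61085061 (Pdgfrb) and chr19:34241090-34255590 (Acta2), in GRCm38/mm10.

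The guanylate cyclase subunits were within 1.5-fold between the libraries in annotated pericytes. Gucy1a1 was at 3.15 and 2.42, with a UMI in 63.9% and 72.4% of cells, and Gucy1b1 at 2.76 and 3.03, in 56.6% and 86.2%. Without the Hhip-led cluster Gucy1a1 was higher in the CIN_high library, at a log2 ratio of 0.84, and Gucy1b1 was at 0.54. In CIN_high fibroblasts Gucy1a1 was at 1.19 (45.5% of 966 cells) and Gucy1b1 at 0.917 (37.3%). In the 21 CIN_low fibroblasts they were at 0.318 (4 cells) and 0.914 (11 cells). Endothelial cells stood lower, at 0.843 and 0.0804 for Gucy1a1 (14.6% and 3.64% of cells) and 0.683 and 0.0421 for Gucy1b1 (12.0% and 1.21%).

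**Figure D1:**
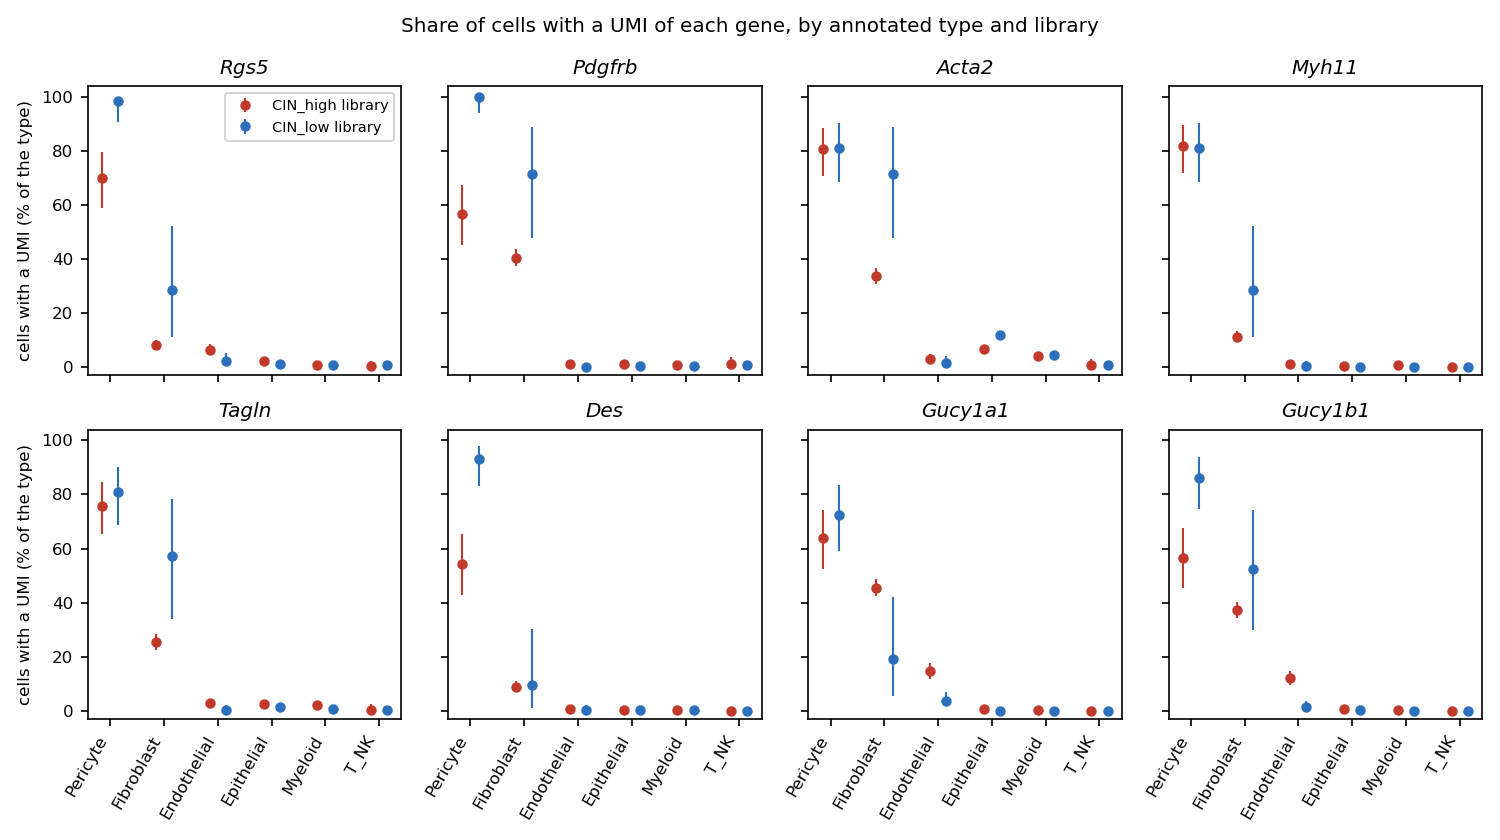
Share of cells with at least 1 UMI of each gene (y axis, %), by annotated type, in the CIN_high (red) and CIN_low (blue) library; bars are exact 95% binomial intervals for counting error. Pericytes stand highest in every panel, and Gucy1a1 and Gucy1b1 are the only panels in which CIN_high endothelial cells rise above 10%.

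Cells that should lack these genes gave the background. Among 648 T and NK cells, Gucy1a1, Gucy1b1, Myh11 and Des had 0 UMIs, with upper 95% limits of 1.56% of the 234 CIN_high and 0.887% of the 414 CIN_low cells. Their median depth of 3442 UMIs in the CIN_high library was close to that of its endothelial cells. Myeloid cells had a Gucy1a1 UMI in 13 of 2930 (0.444%) and 1 of 5348 cells (0.0187%), at medians of 5721.5 and 6171 UMIs. In epithelial cells it was 9 of 1316 and 0 of 1725. The 14.6% of CIN_high endothelial cells with Gucy1a1 therefore lay far above the share in these types. For Acta2 it did not: 3.16% of CIN_high endothelial cells had a UMI, against 4.06% of myeloid and 6.61% of epithelial cells of the same library, which are deeper, and 2 of 234 T and NK cells (0.855%, 0.104% to 3.05%). Myh11 was at 60 UMIs over CIN_high and 8 over CIN_low myeloid cells, and Tagln at 97 and 44. Acta2, Myh11, Tagln, Des and Pdgfrb were each in 3.16% or less of the endothelial cells of both libraries, and over endothelial cells as a whole these low shares are not read as expression.

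The mix of the 8 genes also differed between types. Gucy1a1 made up 28.6% of the 753 UMIs that the 8 genes had in CIN_high endothelial cells, against 1.84% of their 8194 UMIs in pericytes, 11.2% of 7296 in fibroblasts, 3.60% of 445 in myeloid and 3.09% of 388 in epithelial cells. Gucy1b1 made up 19.3% in endothelial cells, 1.48% in pericytes and 8.74% in fibroblasts. Acta2 made up 9.03% of the endothelial and 24.8% of the pericyte UMIs, and Myh11 1.46% and 13.7%.

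Endothelial cells were clustered without the 8 genes and without the pericyte, contractile and cyclic GMP genes, so that the clusters could be compared for them. Of the 7 clusters 4 took a name from their markers: capillary-like (175 cells, led by Cd36, Car4 and Rgcc), arterial-like (97, Gja5, Sema3g and Fbln5), lymphatic-like (150, Ccl21a, Mmrn1 and Lyve1) and venous-like (132, Ackr1, Sele and Madcam1). A cluster of 41 cells led by immune genes, of which 34 were doublet calls, a shallow cluster of 116 cells (median 1706.5 UMIs) and a cluster of 138 cells led by Csf3 stayed unnamed. The 8 genes were spread unevenly over these clusters.

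The alpha subunit gene was found mainly in venous-like cells. Gucy1a1 had a UMI in 46 of 109 CIN_high venous-like cells (42.2%, 32.8% to 52.0%) and in 6 of 23 CIN_low ones (26.1%, 10.2% to 48.4%), and these intervals overlap. With finer clusters (Leiden resolution 1.0), where 2 clusters were venous-like, the shares were 36.4% (28.1% to 45.4%) and 8.70% (3.26% to 17.97%), which do not overlap. Those clusters hold 112 and 86 cells, against 132 at the main resolution, so these shares are over another set of cells. The CIN_high share was the higher at both resolutions, and only the overlap of the counting intervals changed. Such overlap is no test of a difference. With a single library for each class, a difference between the classes within venous-like cells cannot be decided. At the main resolution the Gucy1a1 level was 2.82 UMIs per 10000 in CIN_high and 0.678 in CIN_low venous-like cells. It was 3.15 and 2.42 in the pericytes of the same libraries. Gucy1b1 was in 6 and 1 of the same cells (5.50% and 4.35%). In capillary-like cells Gucy1a1 was found in 3 of 175 cells and in arterial-like cells in 3 of 97.

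The beta subunit gene was found mainly in lymphatic-like cells. Gucy1b1 had a UMI in 55 of 129 CIN_high lymphatic-like cells (42.6%, 34.0% to 51.6%) and in 1 of 21 CIN_low ones (4.76%, 0.120% to 23.8%), and these intervals do not overlap. Gucy1a1 was in 30 of the 129 (23.3%, 16.3% to 31.5%) and 0 of the 21, with an upper 95% limit of 16.1%. The lymphatic-like cells had a median of 2509.5 UMIs, fewer than the venous-like cells at 4154. Gucy1a2, the gene of the other alpha subunit, had a UMI in 13 of the 150 lymphatic-like cells (8.67%), in 0 of the 132 venous-like cells and in at most 2 cells of any other cluster.

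Rgs5 was found mainly in capillary-like cells. It had a UMI in 27 of 158 CIN_high capillary-like cells (17.1%, 11.6% to 23.9%) and 0 of 17 CIN_low ones (upper 95% limit 19.5%). That limit lies above the CIN_high share, so the 17 cells are too few to show whether the libraries differ there. Every other named cluster had it in at most 4 cells. Acta2 was in 8 of the 97 arterial-like cells (8.25%, 3.63% to 15.6%), 6 CIN_high and 2 CIN_low. Of the 68 Acta2 UMIs of CIN_high endothelial cells, 36 (52.9%) came from 1 cell, and 56 of the 259 Rgs5 UMIs (21.6%) from another. The subunit genes were spread more evenly, with at most 8 of 215 Gucy1a1 UMIs (3.72%) and 10 of 145 Gucy1b1 UMIs (6.90%) in a cell.

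**Figure D2:**
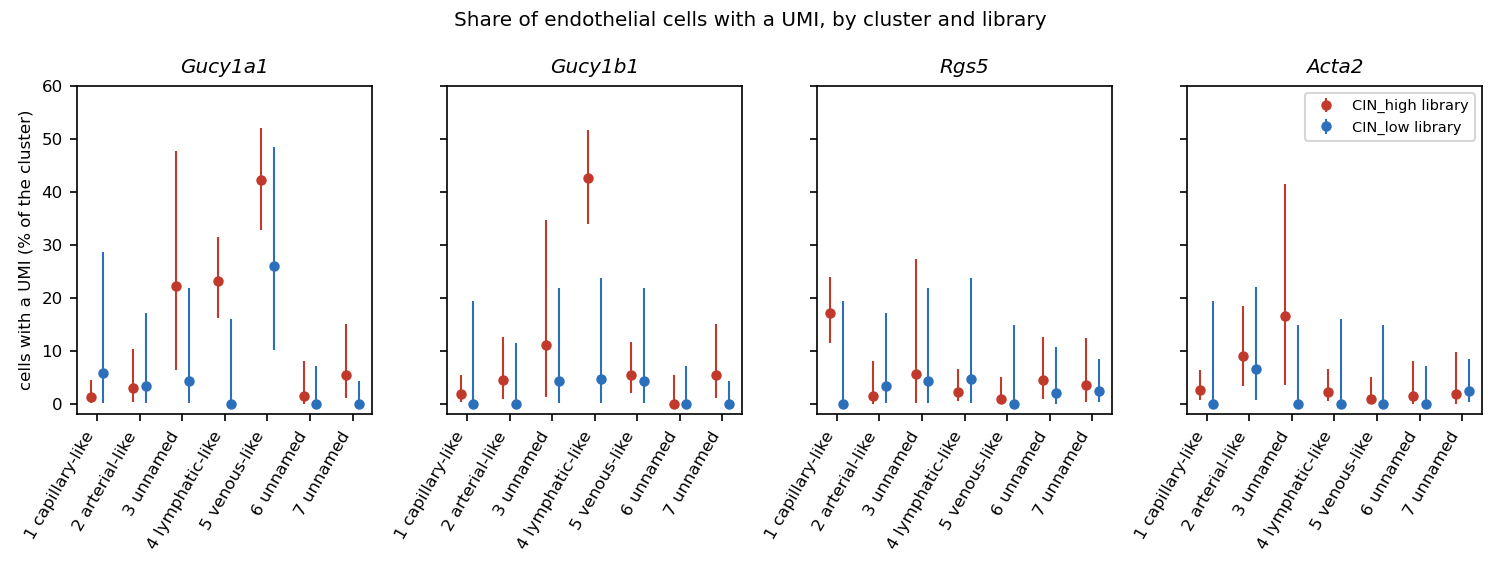
Share of cells with a UMI (y axis, % of the cluster) of Gucy1a1, Gucy1b1, Rgs5 and Acta2 in the 7 endothelial clusters, CIN_high library in red and CIN_low in blue, with exact 95% binomial intervals. Gucy1a1 peaks in the venous-like and Gucy1b1 in the lymphatic-like cluster, at 42.2% and 42.6% of CIN_high cells, and Rgs5 in the capillary-like cluster, at 17.1%.

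Whether a cell held both subunit genes was counted next, since the enzyme works as a dimer of both. Among venous-like cells 7 had UMIs of both, 45 of Gucy1a1 alone, 0 of Gucy1b1 alone and 80 of neither. Lymphatic-like cells had 18 with both, 12 with Gucy1a1 alone, 38 with Gucy1b1 alone and 82 with neither. Gucy1b1 was thus seen in 13.5% of the Gucy1a1-positive venous-like cells and in 18 of the 30 Gucy1a1-positive lymphatic-like cells. Of the 141 pericytes 75 held both, 20 Gucy1a1 alone, 22 Gucy1b1 alone and 24 neither, so 78.9% of Gucy1a1-positive pericytes had Gucy1b1. Fibroblasts were between, at 210 with both of 987, and 47.3% of the Gucy1a1-positive cells had Gucy1b1. At this depth a missed UMI cannot be told from an absent transcript in a given cell. Median depths were 4154 UMIs in venous-like cells, 2509.5 in lymphatic-like cells, 6238 in pericytes and 6784 in fibroblasts. The part of depth in these shares was not tested.

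**Figure D3:**
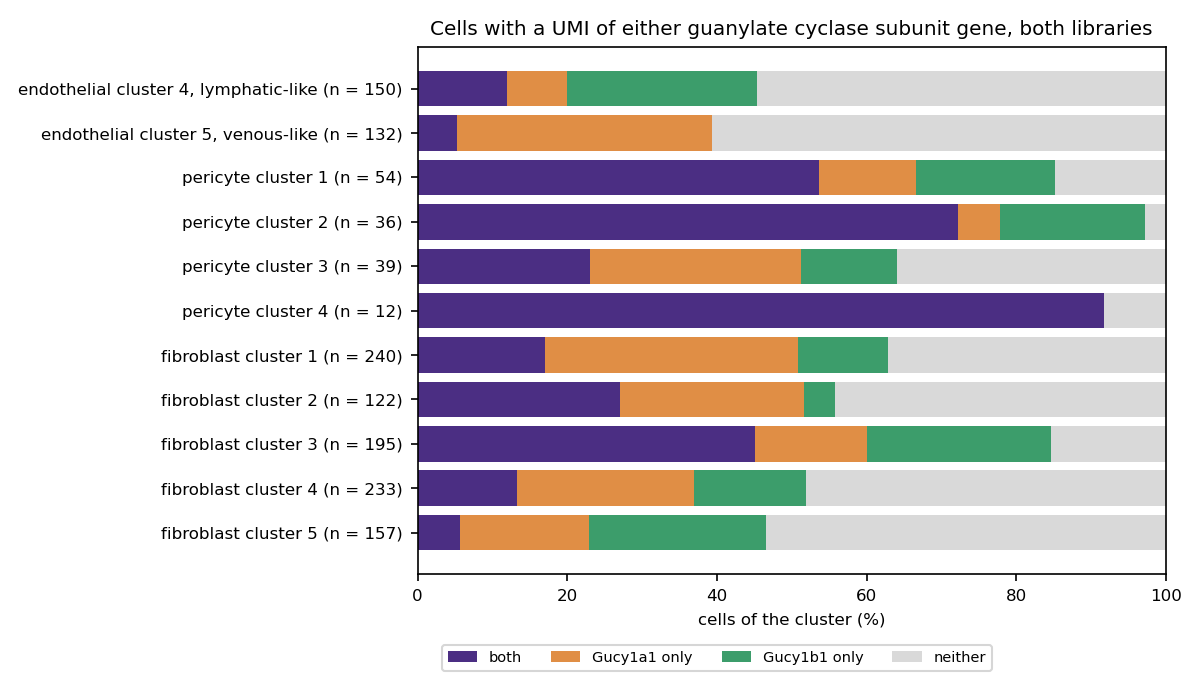
Cells with a UMI of both guanylate cyclase subunit genes (purple), of Gucy1a1 alone (orange), of Gucy1b1 alone (green) or of neither (grey), as a percentage of each cluster, both libraries together. The venous-like bar has no green, the lymphatic-like bar has more green than orange, and the pericyte clusters are mostly purple except cluster 3.

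Endothelial cells with a subunit gene held the other mural genes in few cases. Among the 52 Gucy1a1-positive venous-like cells 4 (7.69%) had a UMI of Rgs5, Acta2, Myh11, Tagln, Des or Pdgfrb, against 4 of the 80 negative ones (5.0%). Of the 15 pericyte genes, 12 had 0 UMIs in the 52 positive cells. The other 3 were Mcam, Anpep and Ebf1, which the negative cells held as well. The 15 endothelial genes summed to 109.6 against 109.7 UMIs per 10000. Of the 56 Gucy1b1-positive lymphatic-like cells 1 (1.79%) had another mural gene, against 7 of 94 (7.45%) negative ones, although the positive cells were deeper (medians of 3571.5 and 2335 UMIs). For Gucy1a1 in lymphatic-like cells it was 2 of 30 (6.67%) against 6 of 120 (5.0%), with the other mural genes at 1.30 against 0.274 UMIs per 10000. The pericyte list summed to 2.27 against 2.14 for Gucy1b1 and 2.01 against 2.23 for Gucy1a1. Within it Kcnj8 was more frequent in positive cells, at 12.5% against 3.19% (Gucy1b1) and 13.3% against 5.0% (Gucy1a1). Steap4 was in 13.3% against 3.33% for Gucy1a1 and 5.36% against 5.32% for Gucy1b1. Abcc9 was less frequent in positive cells for both. Cells with Rgs5 or Acta2 held another mural gene more often. Of the 27 Rgs5-positive capillary-like cells 7 (25.9%) had another mural gene, against 8 of 148 (5.41%), and of the 8 Acta2-positive arterial-like cells 3 (37.5%), against 1 of 89 (1.12%). These positive cells were also deeper, at medians of 5298 against 3976.5 and 7389.5 against 4621 UMIs, and the part of depth in this was not tested. Some pericyte markers were more frequent in the 27 Rgs5-positive cells: Higd1b was in 22.2% against 0.676%, Abcc9 in 18.5% against 2.03% and Pdgfrb in 11.1% against 0.676%. Cspg4, Notch3 and Cox4i2 were each in 7.41% of them, on 2 UMIs each, and in 0 of the 148 others. Mcam was less frequent, in 33.3% against 48.0%, and Cd248 and Steap4 were found among the others alone. Heyl and P2ry14 had 0 UMIs in both groups. The endothelial list stood at 151 against 162 UMIs per 10000, and 0 of the 27 were doublet calls.

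Cells carrying mural and endothelial genes together, defined as a UMI of at least 3 of the 8 genes and of at least 3 of the 15 endothelial genes, were rare. In the CIN_high library 8 of 602 endothelial cells (1.33%, 0.575% to 2.60%) met this, and in the CIN_low library 1 of 247 (0.405%, 0.0102% to 2.23%), and the intervals overlap. In CIN_high endothelial cells 414 had 0 of the 8 genes, 136 had 1, 44 had 2, 6 had 3 and 2 had 5. For CIN_low the numbers were 225 with 0, 20 with 1, 1 with 2 and 1 with 3. The same count in annotated pericytes was 23 of 83 (27.7%) and 38 of 58 (65.5%), in fibroblasts 29 of 966 (3.00%) and 2 of 21, and in myeloid cells 1 of 2930 and 0 of 5348. In 3041 epithelial and 648 T and NK cells it was 0.

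The 9 carriers held different genes. Of these, 3 lay in the capillary-like cluster, 2 in the arterial-like one, and 1 each in the lymphatic-like, venous-like, immune-gene, and shallow clusters. A capillary-like cell of 14835 UMIs had 56 UMIs of Rgs5, 7 of Pdgfrb, 4 of Gucy1a1, 3 of Gucy1b1 and 2 of Des. The other capillary-like carriers had 7 and 3 UMIs of Rgs5 with 1 and 2 of Pdgfrb. This pericyte-like set recurred in the 1 carrier that was a doublet call, with 18 UMIs of Rgs5, 4 of Pdgfrb and 3 of Gucy1b1 among 15845. A contractile set was found in a lymphatic-like cell (6 UMIs of Tagln, 3 of Acta2, 2 of Myh11, 2 of Rgs5, 1 of Gucy1a1) and in a shallow cell of 1057 UMIs (4 of Tagln, 3 of Acta2, 2 of Myh11). An arterial-like cell had 7 UMIs of Gucy1a1, 1 of Gucy1b1 and 1 of Acta2, a venous-like cell 1 each of Gucy1a1, Gucy1b1 and Myh11, and the CIN_low carrier 8 of Rgs5 with 1 each of Acta2 and Des. In the CIN_high library, carriers had a median of 6137 UMIs against 3708 in the other endothelial cells. Their summed fibroblast list was at 5.00 against 0.599 and their pericyte list at 7.92 against 4.51. The median log2 ratio of the 15 endothelial genes, which are part of the carrier definition, was -0.21. The genes outside the lists with the largest ratios (higher in carriers: Vstm4, Hhip, Prxl2a, Cryab, Olfml2b, Fbxl22, Hist1h4h and Cd3eap; lower: Nktr, Raph1, Rheb, Mga, Smg6, Ccn1, Fgfr1 and Tmcc1) rested on 1 to 7 UMIs each over the 8 carriers, too few to read a ratio from.

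**Figure D4:**
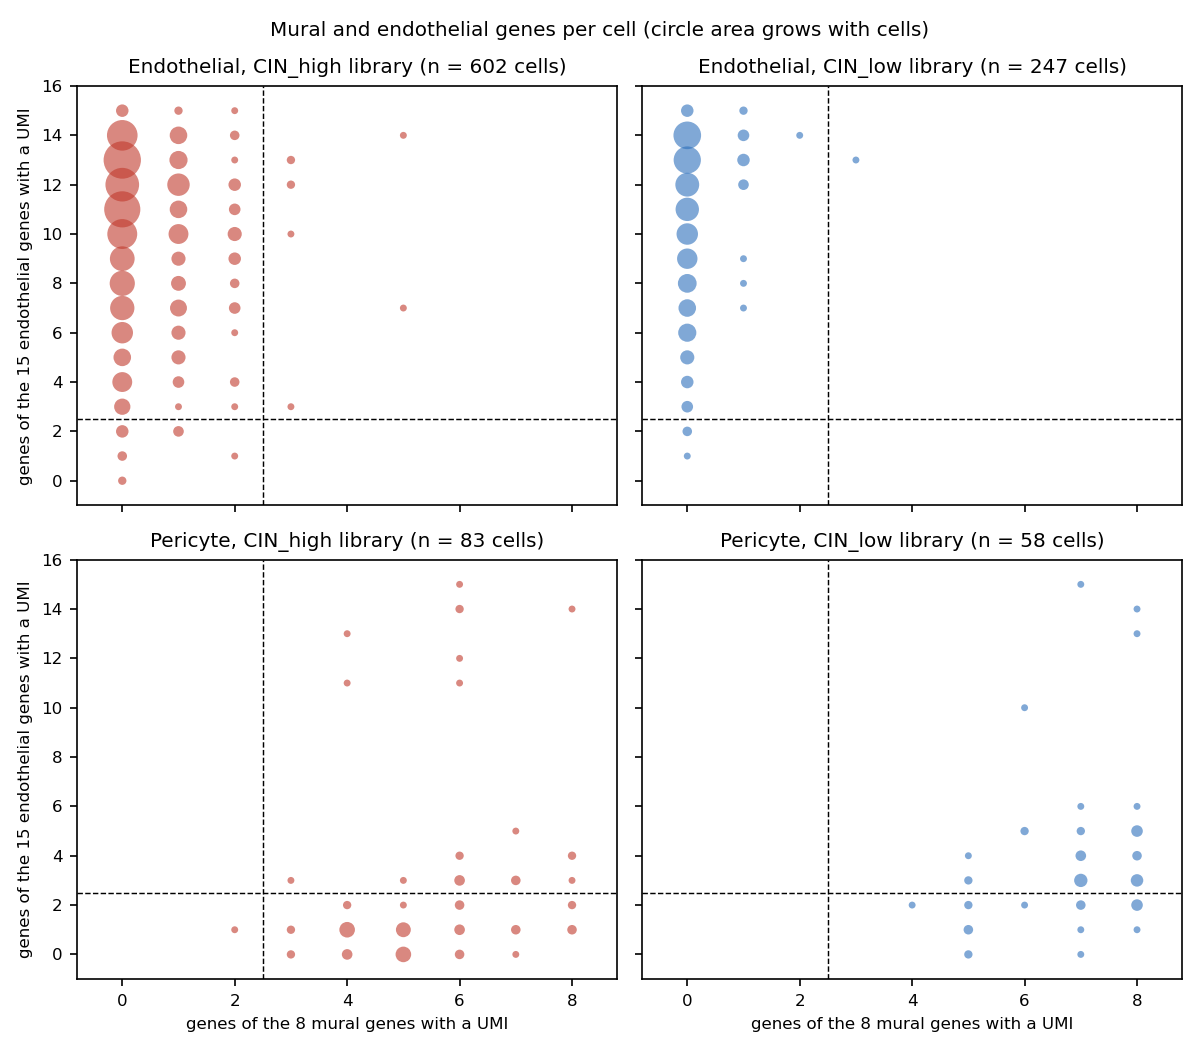
Number of the 8 mural genes (x axis) and of the 15 endothelial genes (y axis) with a UMI in each cell, for endothelial cells (top) and pericytes (bottom) of both libraries; circle area grows with the number of cells, and dashed lines mark the limits of at least 3 of each. In the top panels 8 of 602 and 1 of 247 cells lie right of the vertical line, and in the lower panels 12 pericytes stand apart with UMIs of 10 or more endothelial genes.

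Annotated pericytes, clustered without the same genes, fell into 4 clusters. Cluster 1 (54 cells, 18 CIN_high and 36 CIN_low, led by Mmp10, Lcn2 and Saa3) held Rgs5 at a median of 75.8 UMIs per 10000 (0 to 304) and Acta2 at 13.6 (0 to 89.9). Its Pdgfrb level was 9.03, in 94.4% of cells. No pericyte gene was among its 10 leading genes, which include the neutrophil genes S100a8, S100a9 and Retnlg. Its immune list stood at 36.4 UMIs per 10000, against 2.77 to 7.13 in the other clusters, and its fibroblast list at 79.3, against 30.2 to 41.7. The part of these markers in its member levels was not tested. Cluster 2 (36 cells, 18 of each library, led by Dgkb, Ndst3 and Olfr78) had the highest levels of Rgs5 (155), Gucy1a1 (4.68), Gucy1b1 (5.24) and Pdgfrb (11.9). Cluster 2 also had Pde3a, a cyclic nucleotide phosphodiesterase, at 6.44, against 0.701 to 1.89 in the others, and Gucy1a2 at 1.07.

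Cluster 3, 39 cells all from the CIN_high library and led by Adamdec1, Hhip, Ifi27l2a and Ncam1, was the contractile one. Acta2 was in every cell, at a median of 74.8 (13.3 to 142), as were Myh11 at 38.6 (8.15 to 109) and Tagln at 57.3 (3.32 to 142). Rgs5 had a median of 0 (0 to 44.7), Des was in 9 and Pdgfrb in 7 of the 39 cells. The smooth muscle list summed to 39.4 UMIs per 10000, against 1.96 to 6.34 in the other clusters, and the pericyte list to 4.18, against 40.9 to 57.5. By these markers the cells go against their pericyte label, and they are called here the Hhip-led cluster. They also had the calcium-activated potassium channel genes Kcnma1 (1.26) and Kcnmb1 (1.68) and the cyclic GMP phosphodiesterase gene Pde5a (4.89), with 0 UMIs of Gucy1a2. Gucy1a1 was in 51.3% and Gucy1b1 in 35.9% of them, and 9 of 39 had both, against 29 of 54 and 26 of 36 in clusters 1 and 2.

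Cluster 4 (12 cells, 8 CIN_high and 4 CIN_low) was led by the endothelial genes Kdr, Cdh5 and Pecam1. All 12 cells met the carrier definition, with the endothelial list at 93.1 UMIs per 10000 beside Rgs5 at a median of 63.1 (17.2 to 159) and Pdgfrb in every cell. Both subunit genes were in 11 of the 12, and Nos3, the endothelial nitric oxide synthase, in 8. Acta2 was in 4 cells, at a mean of 2.56. The median depth of 13922.5 UMIs was the highest of the 4 clusters, against 4768 to 10063 in the others, and 1 cell was a doublet call. Whether these were doublets of a pericyte and an endothelial cell was not tested.

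**Figure D5:**
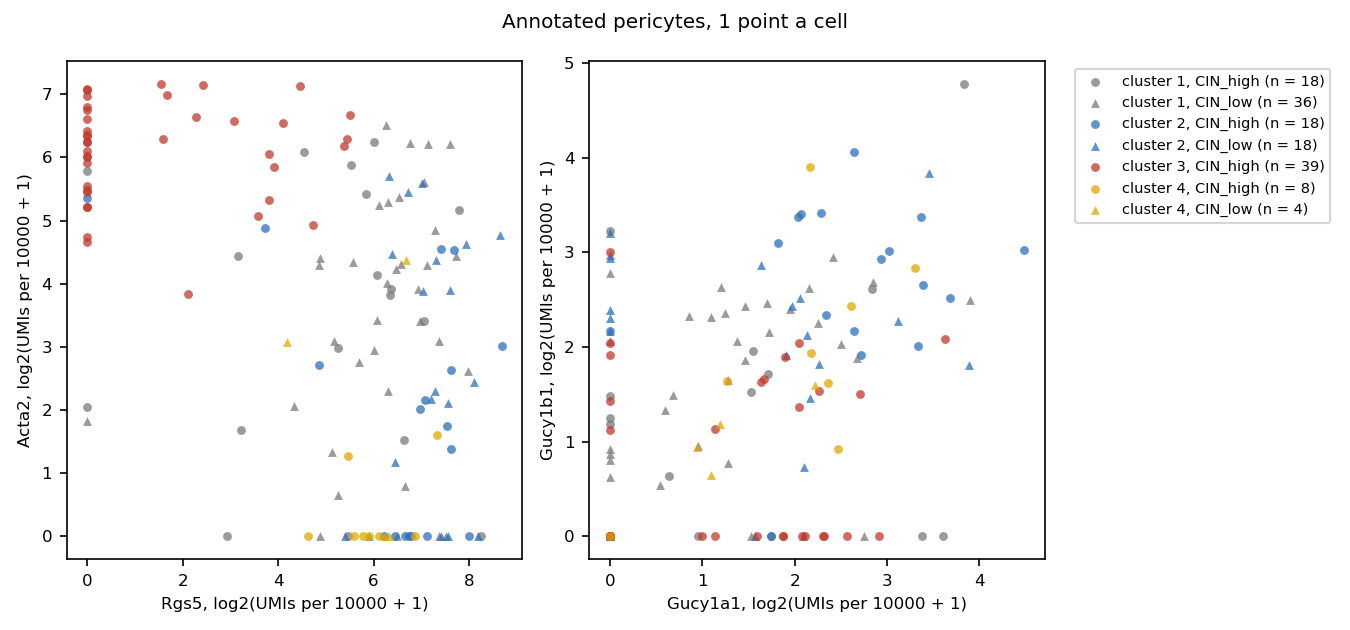
Each point is an annotated pericyte, with Rgs5 against Acta2 (left) and Gucy1a1 against Gucy1b1 (right), on a log2(UMIs per 10000 + 1) scale; colour gives the cluster, circles the CIN_high and triangles the CIN_low library. The red cluster 3 holds Acta2 at 13.3 or more with Rgs5 at 0 in most cells, and the yellow cluster 4 holds Rgs5 at 17.2 or more with Acta2 mostly at 0.

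Fibroblasts added a further combination. Fibroblast cluster 3 (195 cells, 194 of them CIN_high, led by Rbp4, Sox6, Bmp3 and F3) had Acta2 in 92.3% of cells at a level of 16.1, Tagln in 71.8% at 10.0 and Myh11 in 34.4%. It also had Gucy1b1 in 69.7% (level 2.17) and Gucy1a1 in 117 cells (1.64), with both in 88 cells. Rgs5 was in 1 of the 195 cells and Des in 0. The other clusters of more than 100 fibroblasts had Acta2 in 7.92% to 43.9% of cells, and Gucy1a1 was most common among them in the Pi16-led cluster 2 (51.6% of 122 cells, level 1.80), where Gucy1b1 was in 31.1%. Pde5a was in 88.7% of cluster 3 cells and in 57.4% to 70.4% of the cells of those other clusters.

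Between the libraries, endothelial cells had the measured members higher in the CIN_high library. Measured here means detected in 2% or more of the cells of either library, and higher or lower means past 1.5-fold. By that rule 5 of the 8 genes were measured in endothelial cells and all 5 were higher, where 12.8% of the 11114 measured genes were higher and 19.6% lower. The genes were chosen with this contrast in view, and Gucy1b1, Acta2 and Tagln passed the detection limit through the CIN_high library alone, so nothing is read from that count. Gucy1a1 had 215 and 16 UMIs, a 10.5-fold higher level, and the ratio of summed UMIs was 7.43 (4.47 to 13.2). For Gucy1b1 it was 145 and 5 UMIs and 16.2-fold (interval of the summed ratio 6.72 to 50.2). Rgs5 had 259 and 16 UMIs and was 7.11-fold higher (summed 8.96, 5.41 to 15.9). Acta2 had 68 and 4 (summed ratio 9.40, 3.51 to 35.5) and Tagln 33 and 1 (18.3, 3.06 to 743), both at the low shares of cells that are not read as expression. The log2 ratio of Acta2 was 3.58, and 3.13 without the cell that held 36 of its UMIs. Myh11, Des and Pdgfrb had 11 and 1, 6 and 1, and 16 and 0 UMIs and were not measured.

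The mix of endothelial clusters also differed between the libraries. Lymphatic-like cells were 21.4% of CIN_high and 8.50% of CIN_low endothelial cells, venous-like cells 18.1% and 9.31%, and capillary-like cells 26.2% and 6.88%, and the Csf3-led cluster, in which Gucy1a1 was in 2.17% of cells, 9.14% and 33.6%. With the cluster mix held equal the log2 ratio fell from 3.39 to 2.45 for Gucy1a1 and from 4.02 to 3.22 for Gucy1b1. For Rgs5 it rose from 2.83 to 3.11. These values rest on few CIN_low cells, 17 in the capillary-like, 21 in the lymphatic-like and 23 in the venous-like cluster. Other lists moved as well, where 12.8% of all measured genes were higher and 19.6% lower. The lymphatic list was at 55.3 and 17.8 UMIs per 10000 (6 of 7 higher) and the capillary list at 112 and 46.1 (5 of 6). The immune list was at 10.8 and 46.2 (7 of 7 measured genes lower). The dissociation stress list moved little, at 157 and 141 (1 of 16 higher). The fibroblast list was higher in CIN_high cells of types that should lack it. It was at 0.680 and 0.0476 in epithelial cells (7 of 7 measured genes higher) and 2.09 and 0.456 in myeloid cells (4 of 5). Over all measured genes 4.16% and 7.83% were higher there. In endothelial cells that list was at 0.658 and 0.744 (1 higher, 1 lower). Myeloid Gucy1a1 had 16 and 1 UMIs and Gucy1b1 17 and 2, below the detection limit. The part of the cluster mix, of these lists and of free RNA in the result was not tested.

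In pericytes all 8 genes were measured: 3 were higher in the CIN_high library, 3 lower and 2 within 1.5-fold, where 24.9% of the 10748 measured genes were higher and 22.1% lower. Myh11 was 4.24-fold higher (summed 4.36, 3.83 to 4.98), Tagln 3.55-fold (3.05, 2.77 to 3.36) and Acta2 2.41-fold (2.02, 1.88 to 2.17). Rgs5 was 2.08-fold lower (summed 1.95, 1.86 to 2.04), Pdgfrb 2.01-fold (1.85, 1.59 to 2.16) and Des 1.70-fold (1.71, 1.39 to 2.12). Gucy1a1 was 1.30-fold higher and Gucy1b1 1.10-fold lower. Without the Hhip-led cluster, which is 39 of the 83 CIN_high and 0 of the 58 CIN_low pericytes, 2 genes were higher (Myh11 and Gucy1a1) and 0 lower, where 21.7% of 10073 measured genes were higher and 25.3% lower. Without the endothelial-gene cluster as well, Tagln was also higher, 0 genes were lower and Acta2 was at -0.26. Without the Mmp10-led cluster instead, 3 were higher and 3 lower, as in all pericytes, where 30.2% of measured genes were higher and 25.5% lower. These subsets fall short of the 50 cells per library set for comparing types. Without the Hhip-led cluster 44 CIN_high pericytes remain, and without the Mmp10-led one 22 CIN_low pericytes.

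Among the other types compared, Rgs5 was 2.62-fold higher and Acta2 1.85-fold lower in CIN_high epithelial cells, with Tagln within 1.5-fold. There 4.16% of 13304 measured genes were higher and 7.7% lower. Epithelial Rgs5 (2.13% and 1.10% of cells) and Tagln (2.51% and 1.57%) passed the detection limit through the CIN_high library alone. In myeloid cells Tagln was 7.25-fold and Acta2 1.55-fold higher, where 7.83% of 9772 genes were higher and 3.3% lower. The ratios of summed UMIs were 4.40 (3.05 to 6.44) for Tagln and 1.24 (1.01 to 1.51) for Acta2. Acta2 was thus past 1.5-fold by mean level only, and it was in 4.06% of CIN_high and 4.41% of CIN_low myeloid cells. Myeloid Tagln (2.22% and 0.785%) also passed the detection limit through the CIN_high library alone. Nothing is read from the folds of genes that did so. In T and NK cells none of the 8 was measured. Epithelial Acta2 reached 11.9% of CIN_low and 6.61% of CIN_high cells, at summed UMIs of 418 and 147.

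Other contractile genes were mostly higher in CIN_high pericytes. Of 22 listed genes, all measured there, 15 were higher and 1 lower, where 24.9% of all measured genes were higher and 22.1% lower, with a median log2 ratio of 0.94 against 0.03. Without the Hhip-led cluster 6 were higher and 0 lower, with a median of 0.06, where 21.7% of all measured genes were higher and 25.3% lower. Cnn1 (calponin) was at 4.48 and 0.137, Smtn (smoothelin) at 1.52 and 0.286, Actg2 (enteric smooth muscle actin) at 8.24 and 1.79, and Lmod1 (leiomodin, an actin filament nucleator) at 5.70 and 1.79. Mcam, a cell adhesion gene that is also a pericyte marker, was lower, at 2.45 and 4.67. In endothelial cells, where 12.8% of all measured genes were higher and 19.6% lower, 4 of 14 contractile genes were higher and 4 lower (median 0.02 against -0.06). Mustn1 was at 0.645 and 0.145, Mylk, which encodes myosin light chain kinase, at 0.366 and 0.241 and Synm at 0.509 and 0.338. Ppp1r12b, Mcam, Flna and Tpm1 were lower, at 0.119 and 0.267, 1.89 and 3.36, 0.690 and 1.09, and 1.25 and 1.96.

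Among transcriptional regulators of the contractile genes, 3 of 10 were higher and 1 lower in pericytes, near the shares over all genes (24.9% and 22.1%). Myocd, the coactivator of serum response factor in smooth muscle, was at 0.643 and 0.218, and Foxf1, a transcription factor of gut mesenchyme, at 2.29 and 1.41, while Mef2d was lower, at 0.662 and 1.01. In endothelial cells 0 of 8 were higher and 2 lower, against 12.8% and 19.6% of all measured genes. Pericyte markers were mostly lower in CIN_high pericytes: 11 of 15 genes were lower and 2 higher (median -0.93), among them Heyl (0.517 and 1.82), Cd248 (1.11 and 3.21), Higd1b (1.28 and 3.53) and Cspg4, the NG2 proteoglycan (1.65 and 4.50). P2ry14, a nucleotide sugar receptor of pericytes, was higher, at 0.553 and 0.173. In endothelial cells 3 of 7 measured pericyte genes were higher and 3 lower, against 12.8% and 19.6% of all measured genes. Without the Hhip-led cluster 2 regulators were higher and 1 lower, and of the pericyte genes 2 were higher and 3 lower (median -0.18). Over all measured genes 21.7% were higher and 25.3% lower there.

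Of the nitric oxide and cyclic GMP genes 16 were measured in pericytes, with 5 higher and 6 lower, against 24.9% and 22.1% of all genes. Without the Hhip-led cluster 2 of 15 were higher and 1 lower, against 21.7% and 25.3%. Kcnma1 had 31 and 0 UMIs, at least 14.2-fold higher against a floor of 3 UMIs, and 26 of the 31 were in the Hhip-led cluster. Kcnmb1 was at 0.932 and 0.295 and Pde5a at 3.60 and 2.32. Pde3a and Gucy1a2 were lower, at 2.17 and 3.45 and at 0.301 and 0.557. Prkg1, the gene of protein kinase G, stood at 1.04 and 1.38, within 1.5-fold. In endothelial cells 3 of 13 were higher and 1 lower, against 12.8% and 19.6% of all measured genes. The 4 were Prkg1 (29 and 1 UMIs), Pde3a (23 and 5), Npr2 (49 and 12) and Nos2 (28 and 42), named after their values were seen because each was in under 10% of cells. Nos3, the source of nitric oxide in vessels, was within 1.5-fold, at 1.02 and 1.10. By cluster it was highest in the venous-like cells, at 1.86, and lowest in the lymphatic-like cells, at 0.312.

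Of the platelet-derived growth factor genes, Pdgfb, the ligand of PDGFRB, was at 1.17 and 1.63 in endothelial cells, within 1.5-fold. Pdgfa was lower there, at 0.201 and 0.449 (0 of 3 higher, 1 lower, against 12.8% and 19.6% of all measured genes). In pericytes 2 of 6 were higher and 4 lower, against 24.9% and 22.1% of all measured genes. Without the Hhip-led cluster it was 1 and 2 of 5, against 21.7% and 25.3%. Pericyte Pdgfa was at 2.17 and 5.56 and Pdgfc at 30 and 0 UMIs, at least 12.7-fold higher. The list of the Rgs5 family also holds Rgs7bp, the gene of an RGS-binding protein. In that list 2 of 9 measured genes were higher and 3 lower in pericytes, near the shares over all genes. Without the Hhip-led cluster 2 were higher and 1 lower, against 21.7% and 25.3%. Rgs10, a leading gene of the Hhip-led cluster, had 120 and 4 UMIs. Rgs2 was at 1.09 and 0.489, whereas Rgs16, Rgs7bp and Rgs4 were lower, at 1.58 and 5.35, 2.05 and 4.38, and 1.89 and 3.74. In endothelial cells 2 of 8 were higher, with Rgs16 at 1.11 and 0.586, and 2 lower, against 12.8% and 19.6% of all measured genes.

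Among the genes whose levels across types most resembled the mean profile of the 8 were Abcc9 (Pearson r = 0.992), Mrvi1 (0.988), Carmn (0.983), Gm13889, Tpm2, Myl9, Mfap3l, Col5a3 and Arhgef25 (0.973), over 14 combinations of type and library that share depth and libraries. The 8 genes themselves ranged from 0.939 (Gucy1a1) to 0.983 (Tagln). Abcc9 encodes a subunit of a potassium channel of mural cells, and Mrvi1 (now Irag1) a substrate of protein kinase G. In endothelial cells these genes were scarce, with Abcc9 at 0.122 and 0.0810 and Mrvi1 at 0.0275 and 0.00189 in the CIN_high and CIN_low library.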

How the data were processed

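Per the labels, distal colon adenomas were dissociated and sequenced as single cells, 1 sample a group. Cell Ranger 2.1.1, Seurat and mm10 are named in the submitters' processing notes. How cells were filtered, and whether doublets or free RNA were treated, is not given in the sources used. The authors deposited 1 matrix of natural log values, which are ln(1 + UMIs per 10000): the linear values summed to 10000 in every cell. Divided by each cell's smallest non-zero value, 100% were whole within 0.01, and these were taken as UMIs. Classes and cell types are the authors' deposited annotation.

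The members and lists were chosen with earlier results of these data known. The planned design assumed counts if the file held them. As it holds log values, linear values were averaged over cells, and a fold is a ratio of these means. Types with at least 50 cells per library were compared, with a floor of 3 UMIs for a side at 0. Named genes were the 8 members. Of each list, up to 4 genes each way were named that passed 1.5-fold with detection in 10% or more of the cells of the higher side and 30 UMIs in all. The 10 genes most like the members, of which 1 is not reported here, and 8 each way for carriers were also named. Of the listed genes 1 was not found by symbol. Clusters within types used 2000 variable genes, 15 principal components, 15 neighbours and Leiden resolution 0.5 (1.0 as an alternative), leaving out 93 listed genes. A cluster was named from listed markers only. Doublets were called by Scrublet (expected rate 6%, run through Scanpy 1.11.5), which marked 142 cells (2.29%) and 249 cells (3.15%). They were kept, and left out as an alternative. Scripts ran under Python 3.11.15 with SciPy 1.17.1, numpy 2.4.6 and pandas 2.3.3. Figures were drawn with matplotlib 3.10.9. Gene positions are from GENCODE.

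On simulated endothelial cells (10949 unchanged genes), 87% of genes changed 2-fold and 100% of those changed 4-fold passed 1.5-fold, as did 20.8% of unchanged genes. A pass in endothelial cells alone is therefore weak for a gene of few UMIs. No p-value was computed.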

Additional observations from a re-analysis of the deposited data

Results flagged for a closer look

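Rgs5 moved in opposite directions in the cell types compared. Its log2 ratio, CIN_high over CIN_low, was 2.83 in endothelial cells and -1.06 in pericytes, and the difference between them was not tested, because each type has 1 library per class. In endothelial cells 27 of the 38 positive CIN_high cells were capillary-like, and in pericytes the ratio was -0.23 without the Hhip-led cluster.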

How the results depend on the processing

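No paired analysis was possible because each class has 1 library. Of the alternative values for the main results, 70 stayed within their counting interval or count limit and 11 did not, and of the other values 111 stayed, 37 moved and 2 turned their sign. Carriers among CIN_high endothelial cells (1.33%) were 8.47% with at least 2 of the 8 genes, 0.332% with 4, and 0.417% after thinning to 2000 UMIs. Among CIN_low cells (0.405%, 1 cell) the share was 0 with 4 genes, with at least 2 UMIs per gene and after thinning. Gucy1a1 in CIN_high venous-like cells (42.2%) was 29.6% after thinning, and in CIN_low ones (26.1%) 8.70% at resolution 1.0, where 2 clusters carried that name. Gucy1b1 in CIN_low lymphatic-like cells (4.76%) was 0 after thinning. These thinned cluster shares and the equal cluster mix were chosen after seeing the data. Without the Hhip-led cluster, also chosen then, 0 pericyte members were lower and the log2 ratio of Acta2 was -0.47, and without the endothelial-gene cluster as well 0 were lower and it was -0.26. Leaving out doublet calls left all 32 member levels of these types within counting error, and summing UMIs moved 13 of 32. Endothelial depth limits single-cell statements: 42.0% of Gucy1a1-positive and 58.3% of Gucy1b1-positive CIN_high cells had a single UMI.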
